A study of Mus musculus with 21 samples.

Results

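The comparison described here is iron loading of bone marrow-derived eosinophils (BMDEs): 4 libraries of cells given ferric ammonium citrate (FAC), named FAC5A to FAC8A, against 2 control libraries, named CON1A and CON2A. These 6 libraries were chosen by their labels out of 21 in the series, and every gene of their table was analysed. All came from bone marrow of WT mice grown for 4 days in SCF and FLT3L, each at 100 ng/mL, followed by IL-5 (10 ng/mL). FAC, a soluble iron source, was given at 10 µM from day 4 and RNA was taken on day 7. In the same table, 3 libraries of cells given the iron chelator deferoxamine (DFO) at 5 µM entered the shared fit and served as the opposite treatment. Nothing in the labels says that libraries of a group came from separate mice or cultures, so p-values measure only the spread between these libraries. The cultures were bulk samples in which fewer cells of a type and less RNA per cell cannot be told apart. Markers of eosinophils were present: Prg2, the granule major basic protein, was the most abundant gene in each of the 9 libraries, and Epx, Siglecf, Il5ra and Ccr3 were detected in all of them.

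Cells match iron uptake to iron supply mainly after transcription. When iron is scarce, the iron regulatory proteins encoded by Aco1 and Ireb2 bind hairpins called iron-responsive elements (IREs). Binding in the 3′ untranslated region protects the mRNA of the transferrin receptor (Tfrc), and binding in the 5′ untranslated region blocks translation of ferritin (Fth1, Ftl1) and of the exporter ferroportin (Slc40a1). Iron releases both brakes, so that Tfrc mRNA decays while ferritin is made from mRNA already present. Eosinophils are granulocytes of type 2 immunity whose maturation from marrow progenitors is driven by IL-5.

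FAC was followed by more falls than rises when all 4 libraries were used. Of 12607 genes tested, 761 (6.04%) were called at an adjusted p under 0.05, 222 higher (1.76%) and 539 lower (4.28%) than in controls. Of these, 33 rose and 109 fell at least 2-fold. FAC6A stood apart from the other FAC libraries, in a way that followed transcript length. In FAC6A, genes with transcripts under 1 kb lay a median of 0.80 above the control mean on the log2 scale, and genes with transcripts over 8 kb a median of 0.86 below it (-0.86). FAC5A ran from 0.22 to -0.24 and FAC8A from 0.18 to -0.27, whereas FAC7A stayed between 0.00 and 0.02 and each control within 0.02 of the other. The DFO libraries leaned the opposite way, from -0.15 to -0.18 in the shortest class up to 0.09 to 0.15 in the longest.

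**Figure D1:**
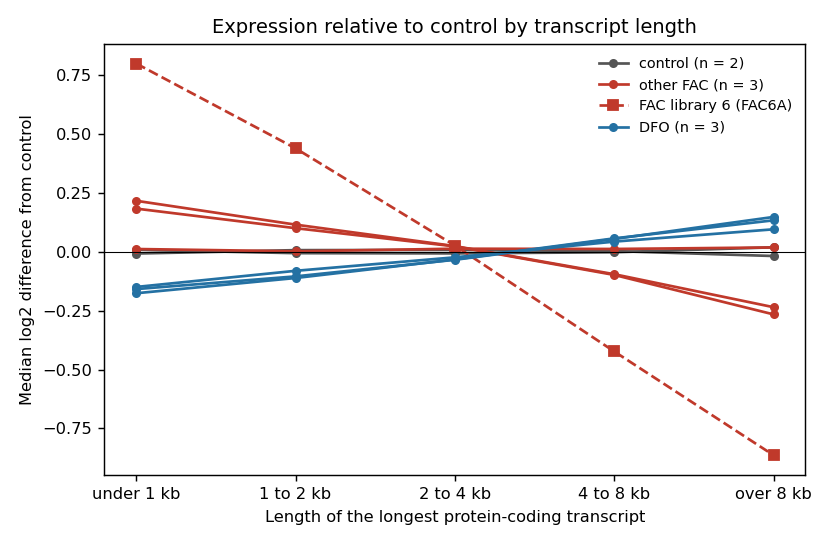
Median log2 difference from the control mean (y axis) for genes grouped by the length of their longest protein-coding transcript (x axis), 1 line per library; each control was set against the other. FAC6A falls from 0.80 in the shortest class to -0.86 in the longest, with FAC5A and FAC8A sloping less and FAC7A flat.

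The list counts and most genes below are therefore given with and without FAC6A. Without it 2728 of 12560 genes (21.7%) were called, 1254 higher (9.98%) and 1474 lower (11.7%), and 34 rose and 158 fell at least 2-fold. Of the 761 genes, 760 were called in both fits, 0 of them with opposite signs. The remaining gene, Tmem217, reached only 1.09 CPM and was not tested without FAC6A. After each library was corrected for transcript length and GC content by fitted offsets, 1789 genes (14.2%) were called, 1025 higher and 764 lower (8.13% and 6.06% of those tested), so the share of rises among the calls depended on the correction. Without FAC6A the offsets gave 3765 calls (30%), 2484 higher (19.8%) and 1281 lower (10.2%). A fit of only the control and FAC libraries takes no spread from the DFO libraries. It gave 116 calls of 12409 genes, 23 higher and 93 lower. The calls also rested on the pair of controls: 76 genes were called without control 1 and 163 without control 2, and 345 without FAC5A and 335 without FAC8A. Levels below are CPM, read counts relative to a library size that TMM factors had adjusted, and changes are log2 fold changes with their standard error (SE).

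Tfrc, the receptor that takes up transferrin-bound iron, was the clearest member of the iron genes. Its mRNA (chr16:32608896-32632794, GRCm38) carries 4 matches to the IRE hairpin in the 3′ untranslated region, the most of any of 12333 transcripts searched. The search asked for a C, 5 bases, the loop CAGTGN and 5 bases that pair with the first 5, G-T pairs allowed, on the mRNA strand, and 192 transcripts (1.56%) held at least 1 match. The hairpins of the iron genes whose values are given next are printed 5′ to 3′ as DNA, with the loop in capitals, from GENCODE M21 transcripts on GRCm38. The Tfrc hairpins lie on the plus strand at chr16:32631219-32631247, chr16:32631598-32631626, chr16:32631663-32631691 and chr16:32631710-32631738, each in 1 exon.
Tfrc hairpin at 32631219: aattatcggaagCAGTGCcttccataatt
Tfrc hairpin at 32631598: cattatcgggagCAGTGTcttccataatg
Tfrc hairpin at 32631663: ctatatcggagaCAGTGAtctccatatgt
Tfrc hairpin at 32631710: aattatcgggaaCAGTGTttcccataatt
Fth1, 5′ untranslated region, chr19:9982732-9982760, plus strand: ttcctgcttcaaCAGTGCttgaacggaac
Ftl1, 5′ untranslated region, chr7:45459779-45459807, minus strand: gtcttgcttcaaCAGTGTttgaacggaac
Slc40a1, 5′ untranslated region, chr1:45925465-45925493, minus strand: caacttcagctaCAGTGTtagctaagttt
A match describes the letters and was not tested for binding. Of 8 genes listed for a known IRE, 5 held a match, the 4 above among them.

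Tfrc stood at 493 and 477 CPM in controls and at 313, 313, 340.1 and 316 CPM in FAC5A to FAC8A. All 4 FAC libraries lay below both controls, an absence of overlap seen in 36.1% of all genes tested (17.1% with FAC higher, 19% with FAC lower), and the DFO libraries (478, 486 and 478 CPM) lay among the controls. Tfrc fell by 0.60 ± 0.06 (SE) on the log2 scale (adjusted p = 0.00178), and by 0.58 ± 0.05 without FAC6A (adjusted p = 1.8e-06). It was also 0.59 lower with FAC than with DFO (-0.59, adjusted p = 5.43e-05). The call held under each of 18 alternative settings, with changes from -0.62 to -0.37 and a highest adjusted p of 0.0431, reached without control 1. Slc39a14, a transporter of iron not bound to transferrin, stood at 18.7 and 19.5 CPM in controls and at 11.6, 8.82, 12.8 and 12.7 CPM with FAC. It fell by 0.73 ± 0.14 (adjusted p = 0.0164), and by 0.61 ± 0.08 without FAC6A (adjusted p = 0.000109), but was not called without control 1 or control 2 (adjusted p = 0.144 and 0.155). Of 10 tested genes of transferrin and metal uptake, these 2 fell and 0 rose, against 4.28% of all genes called lower. The median of the list was -0.23, against -0.02 over all genes. Without FAC6A, Lcn2, a siderophore-binding protein, and the scavenger receptor gene Lrp1 fell as well, for 4 of 10, against 11.7% of all genes. Slc11a2, the endosomal iron transporter, was at 41.4 and 39.7 CPM in controls and 42.1 to 44.4 CPM with FAC (0.08, adjusted p = 0.484).

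Among the storage genes, the ferritin light chain gene Ftl1 stood at 4256 and 4079 CPM in controls and at 6368, 9608, 5611 and 6333 CPM in FAC5A to FAC8A. Every FAC library was above every control and above the DFO libraries (4201 to 4279 CPM), and FAC6A was the highest. With all 4 libraries its change of 0.74 ± 0.19 missed the threshold (adjusted p = 0.052). Without FAC6A it rose by 0.56 ± 0.06 (adjusted p = 1.94e-05), and it was also called without FAC7A (0.86, adjusted p = 0.0272). The heavy chain gene Fth1, whose product oxidises iron for storage, was not called in either of these fits. Fth1 stood at 1331 and 1278 CPM in controls and at 1555, 2427, 1322 and 1510.4 CPM with FAC, so that FAC7A fell between the controls. It was not called with FAC6A (0.38, adjusted p = 0.292) or without it (0.17, adjusted p = 0.072), and the DFO libraries lay at 1640.0 to 1735 CPM. Fth1 was called in 2 of 18 alternatives: with offsets and without FAC6A, and without both FAC6A and FAC7A. Ferroportin, the only known cellular iron exporter, is encoded by Slc40a1. It was at 103 and 100.1 CPM in controls, at 83.6 to 88.3 CPM with FAC and at 148 to 155 CPM with DFO. The groups did not overlap, but its change of -0.24 ± 0.06 was not called with FAC6A (adjusted p = 0.0536), and it fell by 0.23 ± 0.05 without it (adjusted p = 0.00474). Of 8 tested storage and export genes 1 fell and 0 rose, against 4.28% and 1.76% of all genes. Without FAC6A 2 fell and 2 rose, against 11.7% and 9.98%. The gene called in both was Cp, a ferroxidase, at 3.44 and 2.64 CPM in controls and 0.659 to 1.09 CPM with FAC (-1.84 ± 0.24, adjusted p = 0.00338), a gene singled out after its values were seen. The median of this list changed sign with FAC6A (-0.07) and without it (0.01). With length and GC offsets and without FAC6A, 4 of the 8 genes rose and 2 fell, against 19.8% and 10.2% of all genes.

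**Figure D2:**
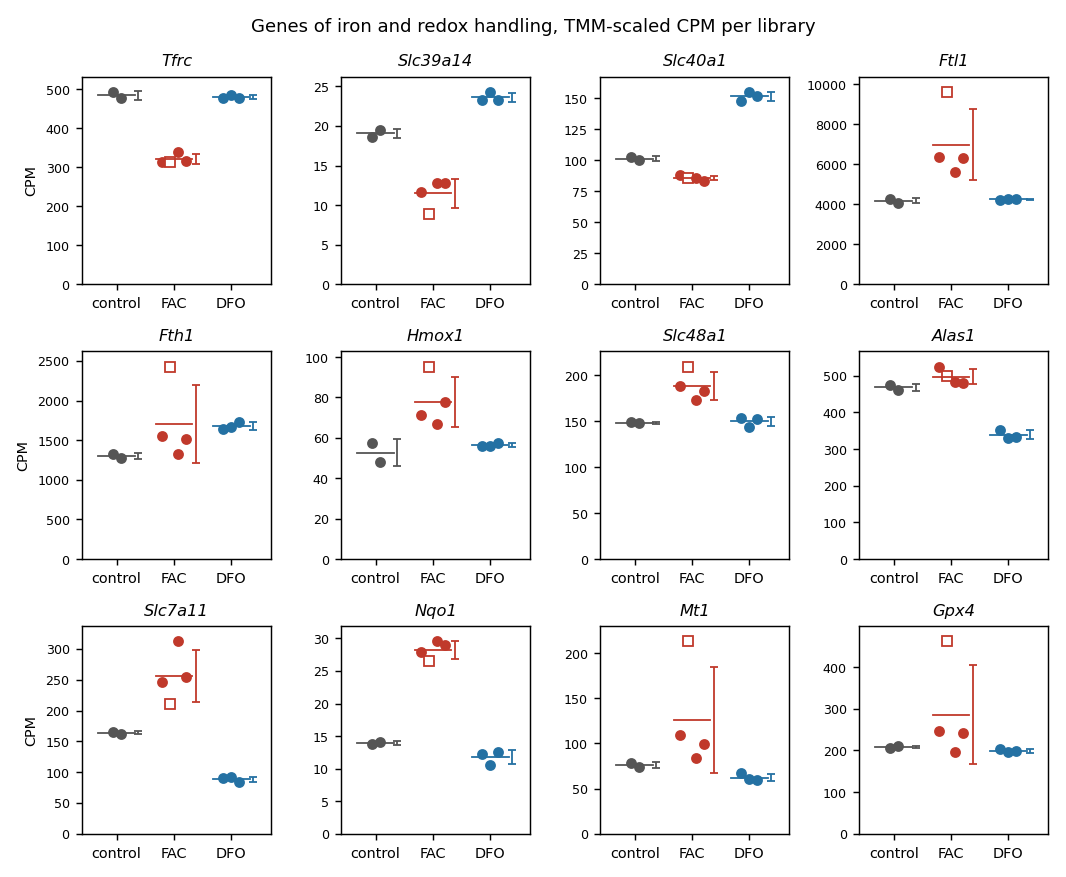
TMM-scaled CPM (y axis, from 0) of 12 genes of iron and redox handling in each control, FAC and DFO library; lines are group means, bars the SD, and the open square is FAC6A. Tfrc, Slc39a14 and Slc40a1 lie lower in every FAC library than in controls and Ftl1, Hmox1, Slc48a1, Slc7a11 and Nqo1 higher, while FAC6A is the highest FAC library for Fth1, Mt1 and Gpx4.

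The iron sensors themselves moved little. Fbxl5, the iron-binding ubiquitin ligase subunit that removes the protein made from Ireb2, was not called (-0.17, adjusted p = 0.301). Ireb2 and Aco1 were at -0.18 and 0.04 (adjusted p = 0.283 and 0.807), and the sign of each depended on the setting. Of 10 tested genes of iron sensing 0 were called with FAC6A, and 1 without it, Id1, a target of bone morphogenetic protein signalling. In heme handling, 2 of 9 tested genes of heme breakdown and transport rose, against 1.76% of all genes called higher. Hmox1, the heme oxygenase that frees iron from heme, stood at 57.5 and 47.8 CPM in controls and at 71.1, 95.2, 66.9 and 77.9 CPM with FAC, all above both controls and the DFO libraries (55.8 to 57.7 CPM). It rose by 0.56 ± 0.14 (adjusted p = 0.0485), and by 0.46 ± 0.08 without FAC6A (adjusted p = 0.000737). Its call was lost without control 1, control 2, FAC5A or FAC8A (adjusted p = 0.175, 0.38, 0.0838 and 0.104). Slc48a1, which carries heme out of lysosomes, rose by 0.35 ± 0.08 (adjusted p = 0.043), and by 0.30 ± 0.05 without FAC6A, and its call was lost without the same 4 libraries. The list held 0 calls with upper-quartile factors in place of TMM, without the expression filter, or with only control and FAC libraries. The median of this list was 0.10 with FAC6A and -0.02 without it. Of 15 tested genes of heme synthesis 0 were called with FAC6A (median 0.11). Without it 4 rose, against 9.98% of all genes. Among them were Fech, the mitochondrial iron importer gene Slc25a28 and the porphyrin transporter gene Abcb6, the last by 0.44. Alas1, the first enzyme of the pathway, was at 476 and 460.4 CPM in controls and 479 to 525 CPM with FAC (0.09, adjusted p = 0.455), and at 330.0 to 353 CPM with DFO. Of 27 genes of iron-sulfur cluster assembly 0 were called (1 without FAC6A), and of 26 iron-dependent dioxygenases 0 (1 higher and 2 lower without FAC6A). The dioxygenase transcripts are long, with a median of 5245 bases against 3116 over all genes. With length and GC offsets and without FAC6A 8 of them rose and 0 fell (median 0.09), against 19.8% and 10.2% of all genes.

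Several genes of a list for antioxidant defence and ferroptosis rose. Ferroptosis is cell death by iron-driven lipid peroxidation, held back by glutathione made from imported cystine. Not every member is a defence gene: Lpcat3, of phospholipid synthesis, and the glutathione-degrading Chac1 were both among the rises. Of 24 tested genes 9 rose and 0 fell, against 1.76% of all genes called higher, with a median of 0.37. Without FAC6A 14 rose and 0 fell, against 9.98%, with a median of 0.27. With only control and FAC libraries 3 rose and 0 fell (median 0.38), where 23 of 12409 genes were called higher. Nqo1, a quinone reductase, stood at 13.7 and 14.2 CPM in controls and at 26.5 to 29.5 CPM in the 4 FAC libraries. The FAC libraries lay close together, well above the controls and the DFO libraries (10.5 to 12.5 CPM). Nqo1 rose by 1.02 ± 0.10 (adjusted p = 0.0011), by 1.06 ± 0.09 without FAC6A, and was called whichever of the 6 libraries was left out. Slc7a11, the cystine importer subunit, stood at 166 and 163 CPM in controls, at 246, 211, 312 and 254 CPM with FAC and at 84.1 to 91.5 CPM with DFO, with no overlap between the 3 groups. It rose by 0.64 ± 0.13 (adjusted p = 0.0271) and by 0.73 ± 0.08 without FAC6A (adjusted p = 1.88e-05), and its call was lost without control 1, control 2, FAC5A or FAC8A (highest adjusted p = 0.217). Slc7a11 was also not called with only control and FAC libraries. Its partner Slc3a2 rose by 0.47 (0.43 without FAC6A), and Lpcat3, which builds polyunsaturated phospholipids, by 0.54 (0.58 without FAC6A). The peroxiredoxin-repairing Srxn1, glutathione reductase (Gsr), G6pdx and catalase (Cat) rose by 0.36 to 0.52. Gpx4, the lipid peroxide reductase, was at 206 and 211 CPM in controls and at 246, 461, 196 and 241 CPM with FAC, FAC7A being the lowest library of the 6, and was not called (0.46, adjusted p = 0.351). The list held 1 call without control 1, 3 without control 2, 5 without FAC5A and 4 without FAC8A. The metallothionein gene Mt1 was at 78.6 and 73.5 CPM in controls and at 109, 213, 83.4 and 99.2 CPM with FAC. It was called only without FAC6A among these 2 fits (0.36 ± 0.09, adjusted p = 0.00964).

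Genes of the integrated stress and unfolded protein response rose too, the programme by which ATF4 raises amino acid genes and the endoplasmic reticulum raises its chaperones. Of 24 tested genes 10 rose and 0 fell, against 1.76% of all genes called higher (median 0.33), and 18 and 0 without FAC6A, against 9.98% (median 0.32). Slc7a11 and Chac1 stand in both this list and the antioxidant list, so the counts are not separate. All 24 changes were above 0, where 6026 of 12607 genes were. With only control and FAC libraries 1 of 24 was called (median 0.34), where 23 of 12409 genes were called higher. The list held 0 calls without control 1 or control 2, 3 without FAC5A and 4 without FAC8A. Trib3, a pseudokinase induced by ATF4, stood at 6.54 and 7.33 CPM in controls and at 12.6 to 16.7 CPM with FAC, highest in FAC6A. It rose by 1.02 ± 0.16 (adjusted p = 0.00859), and by 0.94 ± 0.12 without FAC6A. Asparagine synthetase (Asns) stood at 42.8 and 36.4 CPM in controls and at 60.2 to 74.5 CPM with FAC, and rose by 0.70 ± 0.12 (adjusted p = 0.0137; 0.63 without FAC6A). Neither was called without control 1 or control 2 (adjusted p from 0.0722 to 0.168). The glutathione-degrading enzyme gene Chac1 rose by 0.65 (0.67 without FAC6A), the serine synthesis gene Psat1 by 0.47 (0.45) and the chaperone gene Hspa5 by 0.33 (0.36). Chac1 was not called without control 1, control 2, FAC5A or FAC8A (highest adjusted p = 0.389). Atf4 itself was at 359 and 352 CPM in controls and at 422 to 644 CPM with FAC, without overlap. It was called only without FAC6A (0.36, adjusted p = 0.000574; with it adjusted p = 0.0884). DFO libraries lay below both controls for Trib3 (2.52 to 3.52 CPM), Asns (25.9 to 31.0 CPM), Atf4 (242 to 260.4 CPM) and Hspa5 (964 to 1060.5 CPM).

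The promoters of these genes were read for the letters of the amino acid response element (CARE), the composite site of ATF4 with a C/EBP partner, because Slc7a11, Asns and Chac1 belong to both the stress list and the rises. TGATGNAA was searched on both strands of the 250 bases before each start site. It was found in 5 of 24 genes of the list (Atf3, Asns, Chac1, Slc7a11 and Herpud1), against 2.57% of 10147 genes searched and 2.12% of 12931 promoters. Trib3, Psat1 and Hspa5, which also rose, held no match. The stretches around the matches of Slc7a11, Asns and Chac1 are from RefSeq promoters on GRCm38.p6. They run 5′ to 3′ along the gene, with matches in capitals. A match on the other strand is printed as its reverse complement.
Slc7a11, chr3:50443623-50443709, minus strand: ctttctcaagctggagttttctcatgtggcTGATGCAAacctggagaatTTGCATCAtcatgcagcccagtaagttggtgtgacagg
Asns, chr6:7693210-7693262, minus strand: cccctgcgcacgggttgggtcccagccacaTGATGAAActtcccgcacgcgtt
Chac1, chr2:119351019-119351086, plus strand: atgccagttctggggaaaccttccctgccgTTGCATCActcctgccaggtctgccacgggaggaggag
Slc7a11 held 2 matches, 1 in each orientation, and the others 1 each. The antioxidant response element TGACNNNGC was found in 6 of 21 searched genes of the antioxidant list, against 14.14% of all genes. They were Nfe2l2, Gclm, Txnrd1, G6pdx, Prdx1 and Sod1, of which only G6pdx is named above as a rise.

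The 12 largest rises among genes called in both fits, at 5 CPM or more and without overlap between libraries, joined enzymes and transporters of varied function; 206 genes met these conditions. Inpp5j, a phosphatase of phosphoinositides, stood at 63.0 and 58.5 CPM in controls and at 148, 134, 132 and 134 CPM with FAC. It rose by 1.17 ± 0.08 (adjusted p = 0.000239), by 1.19 ± 0.06 without FAC6A, and was called under each of 18 alternatives. The neighbouring phospholipase gene Pla2g3 (chr11:3488158-3499346, overlapping Inpp5j at chr11:3494272-3505501) stood at 2.58 and 2.23 CPM in controls and at 5.45 to 7.59 CPM with FAC (1.48 ± 0.18, adjusted p = 0.00277; 1.46 without FAC6A). Because these genes overlap and the strand setting is not given in the sources used here, some reads could belong to either. Selenom, a selenoprotein of the endoplasmic reticulum, begins just beyond them at chr11:3514684. It stood at 30.6 and 30.1 CPM in controls and at 71.9, 106, 52.8 and 66.2 CPM with FAC (1.29 ± 0.24, adjusted p = 0.0177). The carbonic anhydrase gene Car4 stood at 17.7 CPM or less in controls and at 39.4, 59.4, 30.6 and 41.7 CPM with FAC (adjusted p = 0.014; without FAC6A a rise of 1.12 ± 0.12). Atp6v0d2, a subunit of the proton pump of lysosomes, stood at 18.4 and 18.6 CPM and at 37.3, 51.3, 37.6 and 39.6 CPM (1.16 ± 0.14, adjusted p = 0.00283; 1.06 without FAC6A). FAC6A was the highest library for Selenom, Car4 and Atp6v0d2. Fabp4, a fatty acid carrier, rose from 5.11 and 6.30 CPM to 10.5 to 22.4 CPM (1.00 ± 0.13 without FAC6A). Rcn3, a calcium-binding protein of the secretory pathway, rose by 1.26 (1.04 without FAC6A), and Slc6a19, a neutral amino acid transporter, by 1.21 (1.14). Dnmt3l, a cofactor of DNA methyltransferases, rose by 1.33 (1.16 without FAC6A), Samd11 by 1.36 (1.32) and Nxnl2, related to thioredoxins, by 1.18 (1.15). The largest, 2210418O10Rik, rose by 2.76 ± 0.46 (2.73 without FAC6A) from 0.402 and 1.09 CPM to 4.62 to 5.44 CPM, but the DFO libraries were as high (5.48 to 11.9 CPM). Of these 12 genes, Inpp5j and Pla2g3 were called in every alternative. Without control 1, control 2 or both in turn the other 10 lost their call, and Dnmt3l, Fabp4, Selenom and Rcn3 also did without FAC5A, and Dnmt3l and Fabp4 without FAC8A (highest adjusted p = 0.323, Fabp4 without control 1).

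**Figure D3:**
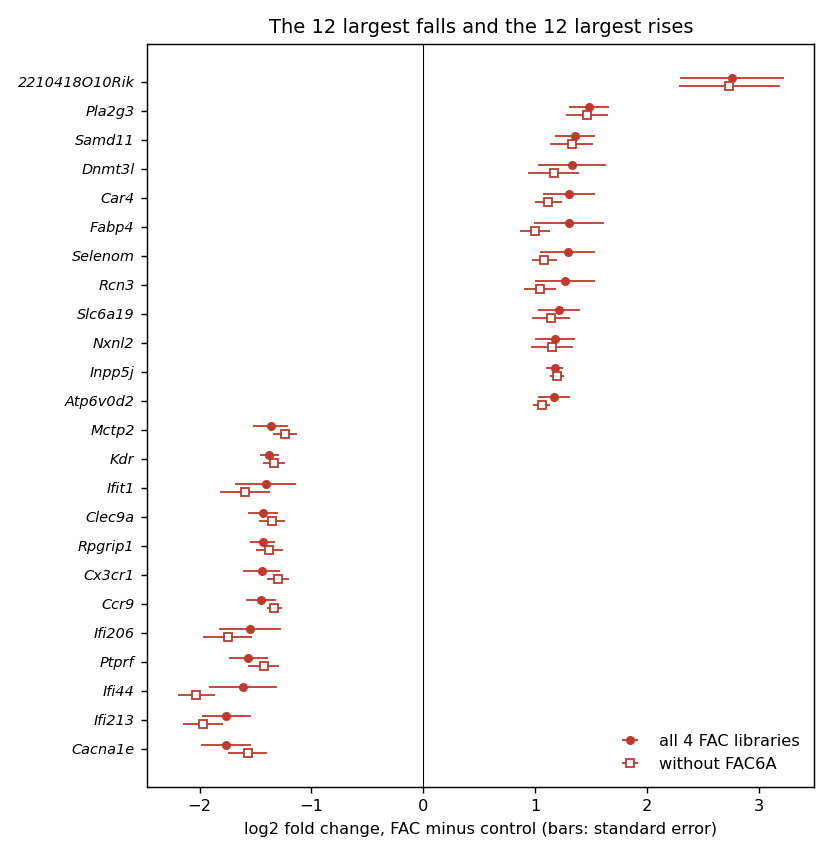
Log2 fold change of FAC against control (x axis, bars the standard error) for the 12 genes with the largest rises and the 12 with the largest falls, with all 4 FAC libraries (filled) and without FAC6A (open). Each gene keeps its side of 0. With all 4 libraries the changes run from -1.76 for Cacna1e to 2.76 for 2210418O10Rik, and without FAC6A Ifi44 is lowest (-2.03); Fabp4 and Ifi44 shift most.

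The 12 largest falls, out of 463 genes that met the same conditions, included 3 genes known from dendritic cells or monocytes and 4 of the interferon response. With all libraries Cacna1e, a calcium channel subunit, had the largest fall (-1.76; -1.57 without FAC6A), followed by Ifi213 and Ifi44, given below, and Ptprf, a receptor phosphatase (-1.56; -1.43). Ccr9, a chemokine receptor of plasmacytoid dendritic cells, stood at 73.6 and 81.6 CPM in controls and at 28.5, 21.8, 31.9 and 31.6 CPM with FAC, against 171 to 184 CPM with DFO. It fell by 1.45 ± 0.13 (adjusted p = 0.0009), and by 1.33 ± 0.07 without FAC6A. Cx3cr1, the fractalkine receptor of monocytes and dendritic precursors, stood at 16.2 and 14.3 CPM and at 3.87 to 6.34 CPM (-1.45 ± 0.16, adjusted p = 0.00208; -1.30 without FAC6A). Clec9a, which marks cross-presenting dendritic cells, stood at 15.0 and 17.4 CPM and at 5.08 to 7.25 CPM (-1.43 ± 0.14, adjusted p = 0.00102; -1.35 without FAC6A). Kdr, the VEGF receptor, stood at 14.6 and 13.8 CPM and at 5.08 to 5.69 CPM (-1.37 ± 0.09, adjusted p = 0.000239; -1.33 without FAC6A). Rpgrip1 (-1.44; -1.38 without FAC6A) and Mctp2 (-1.36; -1.23) completed those outside the interferon response. Each of the 12 was higher with DFO than in controls, and each was lower with FAC than with DFO in the shared fit. Ccr9, Cx3cr1, Clec9a, Kdr, Ptprf, Rpgrip1 and Mctp2 were called in every alternative. Cacna1e lost its call without control 1 (adjusted p = 0.0596).

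The remaining 4 of the largest falls, Ifi213, Ifi44, Ifi206 and Ifit1, are induced by interferon. Interferons act through a transcription factor complex that holds IRF9 and binds the interferon-stimulated response element (ISRE). Of 21 tested genes of the interferon response list 11 fell and 0 rose, against 4.28% of all genes called lower, with a median of -0.79. Without FAC6A all 21 fell, against 11.7%, with a median of -1.03. With only control and FAC libraries 3 fell (median -0.78), where 93 of 12409 genes were called lower. The list held 0 calls without control 1, 3 without control 2, and 5 without FAC5A. Among the 4 large falls, Ifi213 lost its call without control 1 (adjusted p = 0.0522), Ifi206 without control 1 or control 2, Ifit1 without those or FAC5A, and Ifi44 without those, FAC5A or FAC8A (highest adjusted p = 0.23, Ifit1 without control 1). Ifit3, an antiviral effector, stood at 13.7 and 14.2 CPM in controls and at 5.45, 9.31, 3.71 and 4.68 CPM with FAC, against 25.4 to 31.7 CPM with DFO. FAC6A lay nearest to the controls, as it did for Ifi44 (3.51 CPM against 1.32 to 1.71 CPM in the other FAC libraries) and Isg15 (9.85 against 3.89 to 6.22 CPM). Ifit3 fell by 1.27 ± 0.28 (adjusted p = 0.0302), and by 1.58 ± 0.15 without FAC6A (adjusted p = 3.46e-06), and was not called without control 1, control 2, FAC5A or FAC8A (highest adjusted p = 0.206). Ifit2 fell by 1.13 ± 0.16, and Oas3, Rsad2 and Cxcl10 fell too. Irf7, the interferon regulatory factor that plasmacytoid dendritic cells hold at a high level, was at 54.6 and 48.0 CPM in controls and at 24.0, 45.7, 15.1 and 25.9 CPM with FAC. It was called without FAC6A (-1.23 ± 0.15, adjusted p = 3.28e-05) and not with it (-0.89, adjusted p = 0.144).

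Because these genes moved together, their promoters were read for the ISRE letters GAAA, 2 bases of any kind and GAAA, on both strands of the 250 bases before the start site. The motif was found in 9 of 17 searched genes of the list, against 3.44% of 10147 genes and 2.81% of 12931 promoters. Stretches around the matches of 3 list members and of 2 of the largest falls follow, from RefSeq on GRCm38.p6 along the gene, with matches in capitals, which may overlap. A match on the other strand is printed as its reverse complement.
Ifit1, chr19:34640755-34640843, plus strand: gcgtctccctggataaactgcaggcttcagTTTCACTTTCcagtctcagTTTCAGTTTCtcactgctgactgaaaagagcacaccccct
Ifit3, chr19:34583343-34583446, plus strand: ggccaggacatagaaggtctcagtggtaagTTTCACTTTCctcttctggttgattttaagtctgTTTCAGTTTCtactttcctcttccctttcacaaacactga
Isg15, chr4:156200845-156200926, minus strand: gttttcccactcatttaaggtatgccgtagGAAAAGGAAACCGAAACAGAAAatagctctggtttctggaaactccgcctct
Ifi213, chr1:173599306-173599375, minus strand: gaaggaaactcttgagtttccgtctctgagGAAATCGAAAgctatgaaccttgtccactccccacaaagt
Ifi206, chr1:173491319-173491388, minus strand: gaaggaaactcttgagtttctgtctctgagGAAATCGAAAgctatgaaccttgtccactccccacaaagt
Ifit1 and Ifit3 held 2 matches each and Isg15 held 3 that overlap. Ifi213 and Ifi206 are neighbouring copies on chromosome 1 with nearly the same promoter letters, and counts of such copies can be split between them.

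Markers of plasmacytoid dendritic cells, which FLT3L supports and which make interferon, fell alongside. Of 17 tested markers 9 fell and 0 rose, against 4.28% of all genes called lower (median -0.89), and 16 fell without FAC6A, against 11.7% (median -0.92). Without control 1 or control 2, 7 fell. Siglech, a surface marker of these cells, stood at 113 and 124 CPM in controls, at 46.6, 53.9, 45.9 and 51.7 CPM with FAC and at 241 to 261 CPM with DFO. It fell by 1.26 ± 0.09 (adjusted p = 0.000239), by 1.29 ± 0.07 without FAC6A, and was called in every alternative. Tcf4 and Spib, transcription factors of this lineage, fell by 0.91 and 0.95, Pacsin1 by 1.34 and the nucleic acid sensors Tlr7 and Tlr9 by 1.01 and 1.20. The summed level of the 17 markers was 966 and 999 CPM in controls, 489 to 598 CPM with FAC and 1807 to 1844 CPM with DFO. The interferon list summed to 724 and 781 CPM, 419.7 to 635 CPM and 1137 to 1189 CPM in the same order. The part of these cells in the fall of interferon genes was not tested, and 2 genes (Irf7 and Bst2) stand in both lists. Conventional dendritic cell markers gave 5 falls of 14 (median -0.40; 11 without FAC6A; 3 without control 1, control 2 or FAC8A), against the same shares of all genes, among them Itgax (-0.90), Flt3 (-0.77) and Ciita (-0.87), the activator of MHC class II genes. B cell markers gave 5 falls of 8 (median -0.76; 7 without FAC6A, median -0.74), against 4.28% and 11.7% of all genes, among them Pax5 (-1.11), Cd22 (-1.01), Blk (-0.99) and Ms4a1 (-0.90). Without control 1 they gave 2 falls, and Pax5 and Cd22 were not called (adjusted p = 0.0572 and 0.174). B cell markers were low in DFO libraries too: their summed level was 186 and 192 CPM in controls, 109.4 to 133 CPM with FAC and 107 to 119 CPM with DFO.

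Most genes of eosinophil granules rose. Of 7 tested granule genes 5 rose and 0 fell, against 1.76% of all genes called higher (median 0.76 against -0.02 over all genes), and all 7 rose without FAC6A, against 9.98% (median 0.73). Without control 1 or control 2, 0 were called, and without FAC5A 3 were. Prg2 stood at 21802 and 21914 CPM in controls, at 32871, 40406, 29241 and 31308 CPM with FAC and at 9258 to 11074 CPM with DFO. The 3 groups did not overlap. Prg2 rose by 0.61 ± 0.14 (adjusted p = 0.0347), and by 0.52 ± 0.08 without FAC6A (adjusted p = 0.000206); its call was lost without control 1, control 2, FAC5A or FAC8A (highest adjusted p = 0.252). Prg2 was also not called with upper-quartile factors or with only control and FAC libraries. Ear1, Ear2, Ear6 and Ear10, eosinophil-associated ribonucleases, rose by 0.88, 0.85, 0.79 and 0.76. They are close copies among which reads could be split. These transcripts are short (a median of 838 bases over the 7 genes, against 3116 over all), the class in which FAC6A was high. With length and GC offsets 5 still rose (median 0.58), and 7 without FAC6A (median 0.71). With only control and FAC libraries 1 of 7 was called (median 0.77), where 23 of 12409 genes were called higher. Epx, the eosinophil peroxidase, stood at 14119.5 and 13334 CPM in controls and at 18463, 14506, 17196 and 15815 CPM with FAC, without overlap. It was called only without FAC6A (0.33 ± 0.07, adjusted p = 0.00497; with it 0.27, adjusted p = 0.208). Prg3, a homologue of Prg2, was likewise called only without FAC6A (0.48, against 0.72 with adjusted p = 0.11).

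Surface genes of eosinophils moved less. Of 19 tested genes 2 rose, Alox15, a lipoxygenase of lipid mediator synthesis, and Cd24a, and 9 rose without FAC6A. Over all genes 1.76% and 9.98% were called higher in these fits. Alox15 stood at 643 and 635 CPM in controls, at 1063, 932, 1015 and 1045 CPM with FAC and at 279 to 309.5 CPM with DFO. It rose by 0.67 ± 0.08 (adjusted p = 0.00269), and by 0.71 ± 0.05 without FAC6A, and lost its call only without control 1 among the libraries left out (adjusted p = 0.058). Il5ra, the receptor for the cytokine that drives these cultures, was at 121 and 118 CPM in controls and at 137, 108, 157 and 138 CPM with FAC. FAC6A lay below both controls and the other 3 above them, and Il5ra was called only without FAC6A (0.27, adjusted p = 0.0112). Siglecf showed the same arrangement (111 in both controls; 133, 108, 135 and 127 CPM), and was called only without FAC6A (0.26, adjusted p = 0.00646). Ccr3, the eotaxin receptor, was called in neither fit (0.14 and 0.11). In each of Il5ra, Siglecf and Ccr3 the DFO libraries lay below every control and FAC library.

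**Figure D4:**
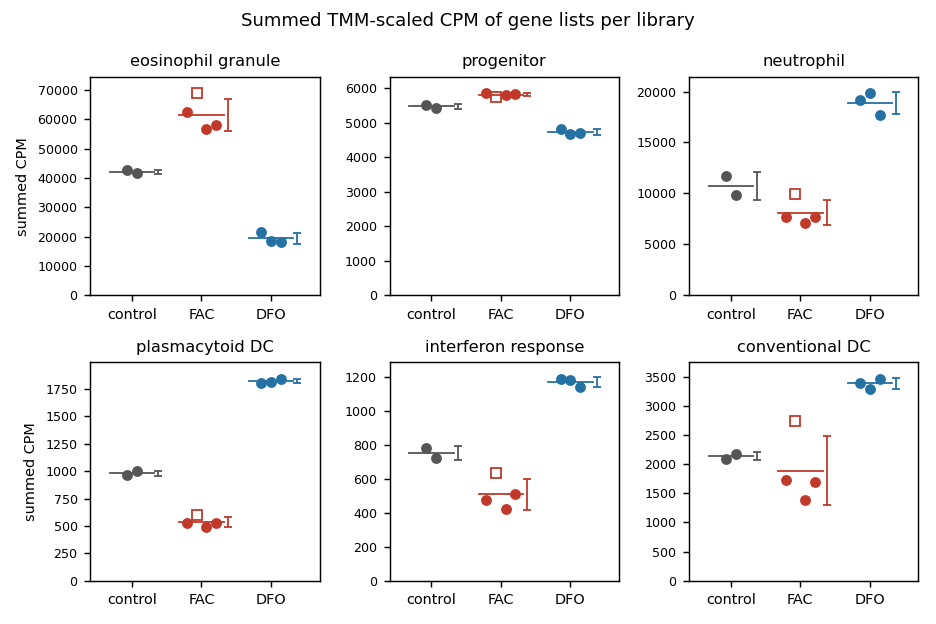
Summed TMM-scaled CPM (y axis, from 0) of the tested members of 6 gene lists in each library; lines are group means, bars the SD, and the open square is FAC6A. Eosinophil granule genes lie at 56558 to 68864 CPM with FAC against 41671 and 42609.5 CPM in controls, and plasmacytoid dendritic cell markers at 489 to 598 CPM against 966 and 999 CPM.

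Transcription factors of granulocytes went both ways, with 2 of 24 higher and 4 lower (6 and 5 without FAC6A; 0 and 2 without control 1 or control 2; 1 and 2 without FAC5A). Over all genes 1.76% were called higher and 4.28% lower, or 9.98% and 11.7% without FAC6A. Gata1, needed for the eosinophil lineage, stood at 108 and 106 CPM in controls and at 142, 171, 129.5 and 141 CPM with FAC. It rose by 0.44 ± 0.11 (adjusted p = 0.0413), and by 0.37 without FAC6A (adjusted p = 0.000314). Its call was lost without control 1, control 2, FAC5A or FAC8A (highest adjusted p = 0.278). Gata1 was also not called with upper-quartile factors or with only control and FAC libraries. Gata2 rose by 0.43 ± 0.08. Cebpe, a factor of granule gene expression, rose only without FAC6A (0.32). Irf8, which directs cells to monocytes and dendritic cells, stood at 203 and 215 CPM in controls, at 120.3, 141, 105 and 116 CPM with FAC and at 386 to 396 CPM with DFO. It fell by 0.79 ± 0.10 (adjusted p = 0.00353), and by 0.87 ± 0.06 without FAC6A, and was called whichever library was left out. Mef2c fell by 0.77, Klf4 by 0.52 and Meis1 by 0.55. Mef2c kept its call whichever library was left out. Klf4 and Meis1 lost theirs without control 1, control 2 or FAC5A, Klf4 also without FAC7A and Meis1 also without FAC8A (highest adjusted p = 0.343, Klf4 without control 1).

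Some genes of progenitors and primary granules fell, while the summed level of the whole list was higher with FAC. Of 18 tested genes 5 fell and 0 rose, against 4.28% of all genes called lower (median -0.28). Without FAC6A 8 fell and 1 rose, against 11.7% and 9.98% of all genes. The falls numbered 1 without control 1, 2 without control 2, and 3 without FAC5A or FAC8A. Flt3, the receptor for FLT3L, stood at 37.1 and 39.6 CPM in controls and at 21.0 to 25.0 CPM with FAC, and fell by 0.77 ± 0.09 (adjusted p = 0.00231), the same without FAC6A. Kit, the receptor for SCF, fell by 0.44 and lost its call without control 1, control 2, FAC5A or FAC8A, or with only control and FAC libraries. Mpo, the myeloperoxidase of primary granules, stood at 427 and 397 CPM in controls, at 308, 310.2, 313 and 317 CPM with FAC and at 621 to 666 CPM with DFO. It fell by 0.40 ± 0.07 (adjusted p = 0.00999, and by 0.39 without FAC6A). With only control and FAC libraries it was not called. Its call was lost without control 1 (-0.35, adjusted p = 0.167) and without control 2 (-0.45, adjusted p = 0.0598). The summed level of the list was 5418 and 5520.2 CPM in controls, 5747 to 5846 CPM with FAC and 4671 to 4826 CPM with DFO. The list includes Calr, which also stands in the stress response list, where all 24 changes were above 0. What each member added to the sum was not tested, so the sum is not a measure of progenitors. Of 17 neutrophil markers 5 fell and 0 rose (median -0.61), against 4.28% and 1.76% of all genes. Without FAC6A 13 fell and 2 rose, against 11.7% and 9.98%. Without control 1, 2 fell and the median was -0.33, and without FAC5A or FAC8A 3 fell. Ltf, lactoferrin of secondary granules and itself an iron-binding protein, stood at 1099 and 942 CPM in controls, at 565, 641, 559.5 and 563 CPM with FAC and at 2014 to 2241 CPM with DFO. It fell by 0.81 ± 0.09 (adjusted p = 0.00208), and by 0.85 ± 0.06 without FAC6A. Camp fell by 0.93 (1.15 without FAC6A) and Mmp9 by 0.83 (0.74). With other libraries left out Camp was not called (highest adjusted p = 0.318), and Mmp9 was not called without control 1, FAC5A or FAC8A, whereas Ly6g, listed here as a neutrophil marker, rose without FAC6A (0.66, adjusted p = 0.000152).

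Genes of the respiratory chain were nearly all above 0 but were not called with FAC6A. Of 36 subunit genes of complex I, 35 were positive with a median of 0.38, yet 0 were called. Without FAC6A 7 rose (median 0.16), and with length and GC offsets as well the median was 0.12. Complexes II to V gave 0 calls of 39 (median 0.33), and 9 rises without FAC6A (median 0.13). These subunits have short transcripts, with median lengths of 977 bases in complex I and 838 bases in complexes II to V. Their summed level in FAC6A, 3051 CPM for complex I, exceeded that of the other FAC libraries (1745 to 2035 CPM) and the controls (1717 and 1732 CPM). Ndufa11, a complex I subunit, stood at 28.3 and 26.7 CPM in controls and at 35.4, 56.6, 31.1 and 35.6 CPM with FAC, and rose by 0.32 ± 0.08 without FAC6A (adjusted p = 0.0108). These counts without FAC6A stand against 9.98% of all genes called higher in that fit. The mitochondrial ribosome gave 0 calls of 78 (3 rises without FAC6A, median 0.08), below that share. The citric acid cycle gave 0 of 25 (3 rises without FAC6A) and fatty acid oxidation 0 of 18 (1 rise without FAC6A). None of these 5 lists held a call in the edgeR fit of all libraries without offsets. With length and GC offsets and FAC6A kept, each held 1 to 3 rises.

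Glycolysis, the cholesterol pathway and the cell cycle rose mainly once FAC6A was left out. Of 21 glycolysis genes 0 were called with FAC6A, and 11 rose and 1 fell without it. This count of rises and those that follow stand against 1.76% of all genes with FAC6A and 9.98% without it. Aldolase A (Aldoa) stood at 1149 and 1128 CPM in controls and at 1735, 2527, 1423 and 1664 CPM with FAC (0.51 ± 0.08 without FAC6A, adjusted p = 0.00021; adjusted p = 0.0733 with it). The gene that fell was Ldhb, a lactate dehydrogenase subunit (-0.60). Of 27 genes of the hypoxia response 0 were called, and 9 rose and 1 fell without FAC6A. The hypoxia and glycolysis lists share Slc2a1, Hk2, Ldha, Pgk1, Aldoa and Eno1, so their counts are not separate. Of 23 genes of cholesterol synthesis 2 rose, Fdps (0.58 ± 0.10, adjusted p = 0.0115) and Acat2 (0.29). Without FAC6A 17 rose and 0 fell, among them the mevalonate kinase gene Mvk (0.41). Of 32 cell cycle genes 4 rose, the mitotic genes Ccnb2, Plk1 and Aurkb and the nucleotide reductase gene Rrm2 (0.26 to 0.42), and 13 without FAC6A, against 1.76% and 9.98% of all genes. Ribosome biogenesis gave 0 calls of 25 (1 fall without FAC6A). With only control and FAC libraries the cholesterol and cell cycle lists held 0 calls. Without control 1 or control 2 the cholesterol and cell cycle lists held 0 calls, and without FAC5A or FAC8A 1 each.

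**Figure D5:**
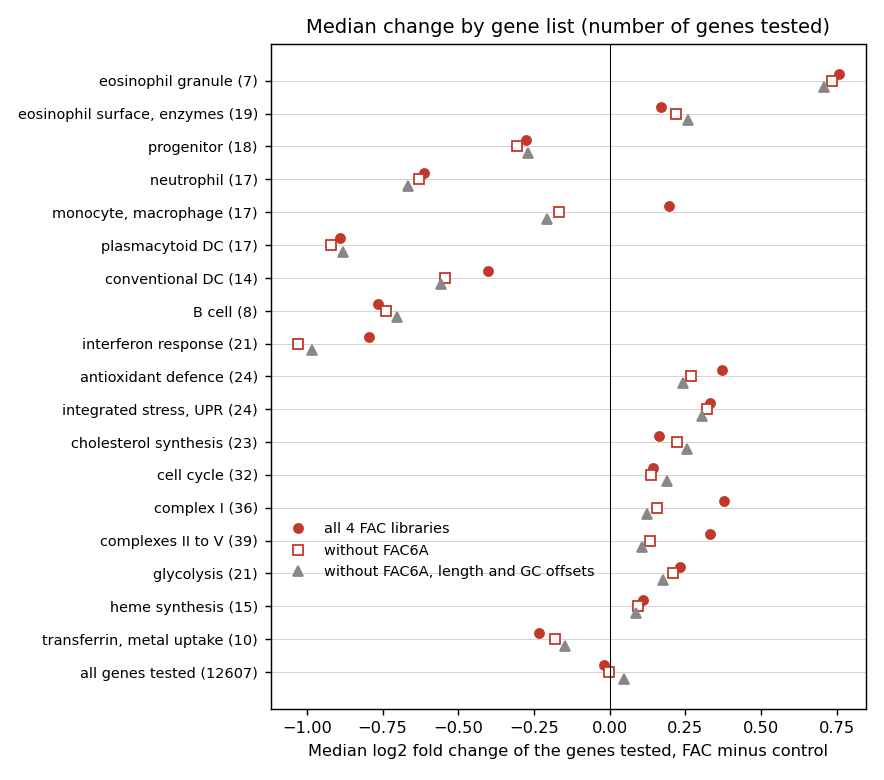
Median log2 fold change of FAC against control (x axis) of the tested genes in 18 lists and over all genes, with all 4 FAC libraries, without FAC6A, and without FAC6A after correction for transcript length and GC content. Granule genes (0.76, 0.73 and 0.71) and plasmacytoid dendritic cell markers (-0.89, -0.92 and -0.88) keep their place, whereas the medians of complex I and complexes II to V shrink without FAC6A.

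FAC and DFO were set against each other in the same fit, where the controls drop out of the contrast. Of 12607 genes 6080 (48.2%) were called, 2959 higher with FAC (23.5%) and 3121 lower (24.8%); without FAC6A it was 7855 of 12560 (62.5%), 4003 higher (31.9%) and 3852 lower (30.7%). Single calls are read against these shares, and the sizes are given. FAC5A, FAC6A and FAC8A leaned with transcript length opposite to the DFO libraries, so this contrast holds both slopes. Granule and complex I genes have short transcripts (medians of 838 and 977 bases). With length and GC offsets 7112 genes were called, 4327 higher with FAC and 2785 lower. The list sizes given next are without offsets. All 7 granule genes were higher with FAC (median 2.10), all 17 plasmacytoid dendritic cell markers lower (median -1.72) and all 21 interferon genes lower (median -1.64). The stress response list had 19 of 24 higher and 0 lower (median 0.73), and complex I 21 of 36 higher and 0 lower (median 0.50, or 0.30 without FAC6A). Some iron genes showed a one-sided pattern. Tfrc differed from controls with FAC, while its DFO libraries (478 to 486 CPM) lay within the range of the controls. Ftl1 was alike, with DFO libraries at 4201 to 4279 CPM against 4079 and 4256 CPM in controls, and was 0.72 higher with FAC than with DFO (adjusted p = 0.00653). Slc40a1 was ordered the other way, lowest with FAC and highest with DFO (-0.82, adjusted p = 6.26e-06). Among the 12 largest rises, 11 were higher with FAC than with DFO; 2210418O10Rik was not (-0.61, adjusted p = 0.0986).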

How the data were processed

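Poly(A) RNA of BMDE cultures was sequenced, and 1 table of 9 libraries was used. Per the labels' protocols, mRNA was taken with oligo(dT) beads. RSEM, StringTie 1.3.1, HISAT2, fastp 0.18.0 and Bowtie2 2.2.8 are named in the submitters' processing notes beside mm10, without saying which made which column; the annotation and strand setting are not given in the sources used here. Expected counts, which the authors deposited without normalization, were rounded, and the authors also deposited TPM, which was read but not tested. The 9 FPKM columns were not used. Symbols were matched for 16596 of 16645 identifiers; 23 symbols turned into dates were replaced by identifier. No pair of libraries held identical values. Totals were 16809789 to 17991878 counts per library.

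Groups came from the sample titles. The 2 control, 4 FAC and 3 DFO libraries were fitted together in edgeR 4.0.16 (R 4.3.3) after filterByExpr and TMM scaling by the two-sided quasi-likelihood F test, with Benjamini-Hochberg adjustment over all genes tested. Genes were called at an adjusted p under 0.05. Alternatives were other scaling factors, no filter, DESeq2 1.42.0, only control and FAC libraries, a threshold of 0.01, each library left out, and length and GC offsets; pairs of libraries left out together were added after the data were seen. Transcript length (98.1% of genes tested) and hairpins came from GENCODE M21. On simulated counts of 12492 genes the fit recovered 94% of 2-fold and 53% of 1.5-fold changes with all libraries (3.92% of calls false). Without FAC6A it recovered 86% and 37% (12468 genes, 5.38% false). Apart from the set changes, the simulated libraries shared the same mean per gene, with no dependence on transcript length. Their dispersions were estimated with FAC6A included in both runs. These rates describe the simulated setting and need not hold for the real libraries. Genes named are a fixed panel, the 12 largest rises and falls that were called in both fits without overlap and at 5 CPM or more, and up to 4 members of each of 38 lists with the largest change; members outside this rule were named after their values were seen. The members and lists were chosen with earlier results of these data known. Lists share some members, among them Flt3, Meis1, Lcn2 and the genes Sdha to Sdhd, so their counts are not all separate.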

Additional observations from a re-analysis of the deposited data

Results flagged for a closer look

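In 86 groups of 4 FAC values (48 genes and 38 list sums), 7 had 1 library farther from the nearest of the others, as a share of the whole range, than the 95% critical value of Dixon's test allows. Chance gives about 1 in 20 such groups. FAC6A was the distant library in 5 of them. It was the highest for Fabp4 (share 0.854; 22.4 CPM against 10.5 to 12.2 CPM), Slc6a19 (0.847; 7.43 against 5.87 to 6.11 CPM) and Atp6v0d2 (0.835; 51.3 against 37.3 to 39.6 CPM). It was the lowest for the sum of ribosome biogenesis genes (0.848; 2977 against 3074 to 3092 CPM) and for the sum of eosinophil surface genes (0.883; 8121 against 9546 to 9734 CPM). For Tfrc the distant library was FAC7A (0.882; 340.1 against 313 to 316 CPM), and for Inpp5j it was FAC5A (0.896; 148 against 132 to 134 CPM).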

How the results depend on the processing

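No paired analysis was possible because the control (1 and 2), FAC (5 to 8) and DFO (9, 11 and 12) libraries share no replicate numbers. The 761 calls (222 higher, 539 lower) were 76 to 2728 with 1 library left out, 7 to 1254 higher and 69 to 1474 lower; where 1 control is left, it is assumed to vary like the other groups. Only FAC7A left the total within 1.5 times (1066), with 381 higher. DESeq2 gave 1311 (550 higher), offsets 1789 (1025 higher), only control and FAC libraries 116 (23 and 93) and a threshold of 0.01 192 (34 and 158). At an unadjusted p under 0.05 there were 1201 higher and 1635 lower. Without FAC6A, offsets gave 3765 (2484 and 1281). With FAC6A and a further library left out, calls were 1351 (515 and 836) for control 1, 1426 (550 and 876) for control 2, 2045 (890 and 1155) for FAC5A, 4425 (2164 and 2261) for FAC7A and 2005 (861 and 1144) for FAC8A. Other scaling and no filter gave 646 to 753, and FAC against DFO 4250 to 7855, all within 1.5 times. With only control and FAC libraries, 7 of 17 plasmacytoid and 3 of 13 conventional dendritic cell markers fell. In that fit 2 of 17 neutrophil markers and 1 of 18 progenitor genes fell, where 93 of 12409 genes did. The causes of these shifts were not tested.

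Of 48 genes followed over 18 alternatives, 32 were called with all libraries and 11 of these in every alternative. Ireb2 reversed to 0.0949 with offsets and to 0.0493 with offsets and without FAC6A. Aco1 ranged from -0.0259 (without control 1) to 0.1953 (without FAC6A and control 2) with libraries left out. The medians of 5 lists changed sign: iron storage and export, heme breakdown, iron-dependent dioxygenases, granulocyte transcription factors, and monocyte and macrophage markers.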

Other observations

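Some gene groups outside the comparisons above also moved. Among type 2 cytokines and chemokines, 3 of 19 tested genes rose and 1 fell with FAC, and 7 rose and 2 fell without FAC6A. Over all genes 1.76% were called higher and 4.28% lower, or 9.98% and 11.7% without FAC6A. Il13, a cytokine of type 2 immunity, stood at 1.66 and 1.95 CPM in controls and at 4.03, 5.08, 3.53 and 4.28 CPM with FAC (1.22 ± 0.23, adjusted p = 0.0164), a low level at which it was named after its values were seen. Il6 rose by 0.77 ± 0.16 and Ccl6, a chemokine that eosinophils make in quantity, by 0.72 ± 0.14, from 1077 and 1106 CPM to 1486 to 2229 CPM. Chil3, a chitinase-like protein, fell by 0.80 ± 0.08 (adjusted p = 0.00128) from 1351 and 1184 CPM to 698 to 758 CPM, and was called whichever library was left out. Il6 and Ccl6 were not called without control 1, control 2 or FAC8A (highest adjusted p = 0.237, Il6 without control 1).

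Monocyte and macrophage markers split, with 2 of 17 higher and 3 lower. This count and those that follow stand against 1.76% of all genes called higher and 4.28% lower, or 9.98% and 11.7% without FAC6A. Ly6c2 rose by 0.87 ± 0.18 and Vcam1 by 0.70 ± 0.14, while Ccr2 fell by 0.77 ± 0.08, Cx3cr1 by 1.45 and F13a1 by 0.54. Without FAC8A 0 were called higher and 3 lower, and with only control and FAC libraries 1 higher and 2 lower. Ly6c2 was not called without control 1, control 2 or FAC8A (adjusted p = 0.0556 without FAC8A). The median of this list was 0.20 with FAC6A and -0.17 without it. In the lysosome list 2 of 22 rose, Atp6v0d2 and Gpnmb (0.52 ± 0.11, adjusted p = 0.0255). Gpnmb was not called without control 1, control 2, FAC5A or FAC8A (adjusted p = 0.0676 without FAC5A and 0.061 without FAC8A). Megakaryocyte markers gave 2 falls of 10 (7 without FAC6A), Gp6 by 0.49 and Ppbp by 0.31. Gp6 was not called without control 1 or control 2. Ppbp was not called without control 1, control 2, FAC5A, FAC7A or FAC8A (adjusted p = 0.117, 0.0586 and 0.084 for these FAC libraries in turn). Mast cell and basophil markers gave 1 rise of 9, Cma1 (0.98, at 2.90 to 3.87 CPM with FAC). Erythroid and T and NK cell markers gave 0 calls of 10 and 0 of 9 with FAC6A; their summed levels were 42.2 to 53.2 CPM and 47.8 to 67.7 CPM over the 6 libraries. Of 7 metallothionein and zinc genes 0 were called with FAC6A, and of 17 immediate early genes 1 fell (Jun, -0.43).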
